A study of Homo sapiens with 7 samples.

Results

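Human HCT116 colorectal carcinoma cells were profiled by ChIP-seq for histone H3 trimethylated at lysine 9 (H3K9me3) and at lysine 27 (H3K27me3). All cells carried a doxycycline-inducible shRNA against UHRF1, none had received doxycycline, and they were collected at day 14. Clone 3 had 2 H3K9me3 samples, 2 H3K27me3 samples and 1 input, and Clone 6 had 2 H3K27me3 samples. Each line is a single clone, so a difference between Clone 3 and Clone 6 is a difference between 2 clones and not between conditions. The data used here were sets of domains shared by the replicates of a clone and mark, and sets shared by the clones. No replicate error can be attached to any value, domains are not replicates of each other, and no test was made.

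The regions described here are the H3K27me3 domains of Clone 3 that border an H3K9me3 domain without touching it. They were chosen by position in the Clone 3 sets. A member shares no base with a Clone 3 H3K9me3 domain and has one within 100 kb, measured edge to edge. Of the 2600 Clone 3 H3K27me3 domains 207 met this rule, and they cover 37.3 Mb of the 386 Mb under the mark. Of the others, 59 overlap H3K9me3, 162 lie more than 100 kb and at most 200 kb away, 535 lie up to 1 Mb away, and 1633 lie farther. Another 4 sit on contigs that hold no H3K9me3 domain. The gap and the side follow from the rule and are given as description only.

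H3K27me3 is placed by Polycomb repressive complex 2 (PRC2), whose catalytic subunits are EZH1 and EZH2, and is the mark of facultative heterochromatin, in which developmental genes are held silent but can be reactivated. H3K9me3 is placed by enzymes such as SETDB1 and the SUV39H proteins, is bound by HP1 proteins, and marks constitutive heterochromatin over repeats, gene-poor regions and some large silent genes. In cancer cell lines both marks can form broad blocks in late-replicating, partly methylated chromatin. UHRF1 binds hemimethylated CpGs and H3K9-methylated histone tails, and it is needed to copy DNA methylation after replication.

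Members hold both CpG-rich and CpG-poor promoters, and 5 are shown to make this range visible. Promoter sequences were from RefSeq (GRCh38.p14), where 55 of the 74 protein-coding genes that start in a member had an entry, too few to summarise the whole group. The RefSeq start of some genes differs from the GENCODE 44 start used to place genes in domains, and the 5 shown have the same start in both. Each line gives the 250 bases upstream of the annotated start, 5′ to 3′ on the strand of the gene, with every CG in capitals. The motif CG reads the same on both strands, and 93.9% of the 35116 promoter windows of that length hold at least 1.

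TENM4: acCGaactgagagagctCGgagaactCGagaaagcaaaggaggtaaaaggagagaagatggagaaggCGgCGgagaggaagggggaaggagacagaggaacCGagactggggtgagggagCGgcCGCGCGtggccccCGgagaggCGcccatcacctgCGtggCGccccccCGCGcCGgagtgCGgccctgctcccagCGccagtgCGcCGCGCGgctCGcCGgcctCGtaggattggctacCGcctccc
SORCS3: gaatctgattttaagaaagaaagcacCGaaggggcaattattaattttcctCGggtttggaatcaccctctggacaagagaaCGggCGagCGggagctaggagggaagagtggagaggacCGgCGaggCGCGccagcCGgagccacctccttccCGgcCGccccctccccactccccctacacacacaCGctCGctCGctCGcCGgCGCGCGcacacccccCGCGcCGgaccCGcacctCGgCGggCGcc
TIMP3: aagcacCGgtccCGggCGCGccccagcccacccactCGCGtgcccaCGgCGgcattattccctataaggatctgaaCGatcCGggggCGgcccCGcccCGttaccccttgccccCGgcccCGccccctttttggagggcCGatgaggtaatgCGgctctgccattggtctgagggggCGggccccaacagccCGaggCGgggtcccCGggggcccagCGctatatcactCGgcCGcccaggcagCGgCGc
CCL7: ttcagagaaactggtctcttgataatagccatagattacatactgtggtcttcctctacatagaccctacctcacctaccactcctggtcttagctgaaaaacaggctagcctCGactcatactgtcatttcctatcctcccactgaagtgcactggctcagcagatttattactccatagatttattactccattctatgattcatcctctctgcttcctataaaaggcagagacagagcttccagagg
OR2G3: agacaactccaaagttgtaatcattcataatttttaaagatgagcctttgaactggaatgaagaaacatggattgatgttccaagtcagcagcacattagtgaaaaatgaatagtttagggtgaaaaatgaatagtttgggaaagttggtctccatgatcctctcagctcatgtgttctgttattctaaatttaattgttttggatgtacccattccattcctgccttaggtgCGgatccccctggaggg

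TENM4 encodes a teneurin of neural cell adhesion, and its window at chr11:79441031-79441280 (minus strand) holds 27 CGs, a number reached by 17.7% of all promoter windows. SORCS3 encodes a VPS10-domain receptor, and its window at chr10:104641040-104641289 (plus strand) also holds 27. TIMP3 encodes an inhibitor of matrix metalloproteinases, and its window at chr22:32801455-32801704 (plus strand) holds 26 CGs, reached by 19.6%. The other 2 windows are CpG-poor, with 1 CG each, reached by 93.9%. They belong to CCL7, a chemokine gene, at chr17:34269971-34270220 (plus strand), and to OR2G3, an olfactory receptor, at chr1:247605336-247605585 (plus strand). The genome positions are those of hg38.

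The flanking domains lay at all distances that the rule allowed. The median gap was 53 kb, with quartiles of 27 and 76 kb and a range of 1 to 99 kb. The gap was at most 10 kb in 17 domains. It was at most 25 kb in 48, over 25 to 50 kb in 51, over 50 to 75 kb in 55 and over 75 to 100 kb in 53, so that these steps of 25 kb held similar numbers. At the limit, the last 3 domains inside had gaps of 98, 98 and 99 kb and the first 3 outside had gaps of 101, 101 and 101 kb. Domains at the lower-coordinate side of the H3K9me3 domain numbered 121 (58.5%), against 86 at the higher side, but within 50 kb of H3K9me3 the lower side had 50.5%. The median gap was 57 kb at the lower side and 44 kb at the higher side. No member had a second H3K9me3 domain within 100 kb on its other side.

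Flanking domains were longer than other H3K27me3 domains, by an amount that depends on how the deposited rows are cut. Their median length was 139 kb (quartiles 54 and 239.5 kb), against 55 kb for the other 2393 H3K27me3 domains. The contrast was smaller among like rows. Each deposited domain carries 2 scores, and neighbouring rows with the same second score may be fragments of 1 longer domain. Where a domain shared its second score with the neighbouring row the medians were 71 kb in members and 41.5 kb in the others, and where it did not they were 185.5 and 140 kb. With such neighbours joined the medians were 230 and 189 kb. Of the members 128 (61.8%) were at least 100 kb long, against 32.5% of the others. Length fell with distance class, from 178 kb for domains that overlap H3K9me3 and 139 kb for the flanking ones to 116 kb at 100 to 200 kb, 58 kb at 200 kb to 1 Mb and 50 kb beyond 1 Mb. Distance was measured from edge to edge, so the class of a domain depends in part on its length. These medians are for rows as deposited, and joined rows were not split by class.

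**Figure D1:**
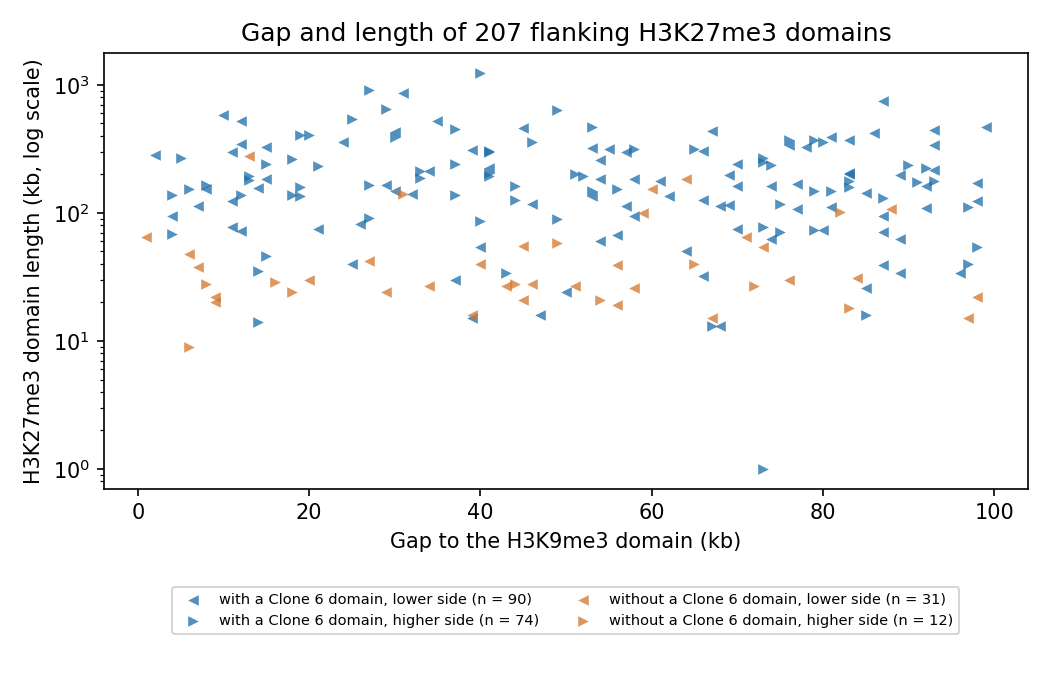
Gap to the H3K9me3 domain in kb (horizontal axis) against length in kb on a log scale (vertical axis) for the 207 flanking H3K27me3 domains of Clone 3. Each triangle is a domain and points to its side of the H3K9me3 domain; colours mark whether Clone 6 has a domain there, and the 43 domains without one lie mostly in the lower part of the plot, with a median length of 29 kb against 164 kb.

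The 5 shortest gaps ran from 1 to 4 kb, and the starts and ends of domains are given in whole kb. The shortest was at chr13:77714001-77779000, where 65 kb of H3K27me3 stopped 1 kb before a 340 kb H3K9me3 domain, and Clone 6 had no H3K27me3 domain at that place. At chr15:85861001-86142000 a 281 kb domain stopped 2 kb before a H3K9me3 domain. That domain holds the start of AGBL1, a carboxypeptidase that removes glutamates from protein tails, and Clone 6 covered 80.8% of it. At chr12:34305001-34400000 a 95 kb domain lay 4 kb from H3K9me3, was covered in full in Clone 6 and held 40.6 CpGs per kb, the highest density of any member. The other 2 lay on chromosome 20. A 138 kb domain at chr20:22200001-22338000 had the same start and end in both clones, and a 69 kb domain at chr20:56210001-56279000 holds MC3R, the melanocortin 3 receptor, with 55.1% in Clone 6.

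The 5 longest members bordered H3K9me3 domains of very different size. The longest ran for 1241 kb at chr10:43689001-44930000, beside an H3K9me3 domain of 146 kb, and holds CXCL12, a chemokine gene, and TMEM72. Clone 6 covered it in full. On chromosome 8 a 919 kb domain holds COL22A1, a collagen gene, with 94.5% in Clone 6. The 862 kb domain at chr11:78683001-79545000 holds TENM4. Clone 6 covered 65.5% of this domain, but the start of TENM4 lay outside Clone 6 H3K27me3. The 751 kb domain at chr10:104358001-105109000 holds SORCS3, with 90.8% in Clone 6. At chr11:116025001-116673000 a domain of 648 kb, without a protein-coding start site, bordered an H3K9me3 domain of only 23 kb. Such cases were the minority, and 34 of the 207 members were longer than their H3K9me3 neighbour.

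Flanked H3K9me3 domains were mainly the large ones. Of the 567 H3K9me3 domains of Clone 3, 147 (25.9%) had a flanking H3K27me3 domain, and their median length was 895 kb against 87 kb for the 420 without. The share with a flank was 11.0% (28 of 254) for H3K9me3 domains under 100 kb, 25.4% (51 of 201) from 100 kb to 1 Mb and 60.7% (68 of 112) at 1 Mb and over. Those of at least 1 Mb carried 101 of the 207 members. Both ends were flanked in 27 domains, 19 of which were at least 1 Mb long. Only the lower end was flanked in 72 and only the higher end in 48. A flanked end carried 1 member in 143 cases, 2 in 29 cases and 3 in 2 cases. Of the 147 flanked domains 130 had a part in the H3K9me3 set shared by both clones, as did 325 of the 420 without a flank.

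The longest flanked H3K9me3 domain covered 11436 kb of chromosome 5, and its flank at chr5:17373001-17515000 holds LINC02218, H3Y2, a histone H3 variant gene, and TAF11L2, a copy of the TAF11 gene family. Another 8 genes of the TAF11L family start in the 85 kb gap between the marks. These near-identical copies share sequence, so read placement there is uncertain. The next in length was a 7420 kb domain on chromosome 21 with 2 flanks at its lower end, of 50 kb and 16 kb, of which Clone 6 had the outer one in full and the inner one not at all. A 6588 kb domain on chromosome 16 had a 542 kb flank, 62.9% of it in Clone 6. A 6207 kb domain on chromosome 14 had a 148 kb flank, 65.5% of it in Clone 6. The 6008 kb domain on chromosome 13 was flanked at both ends, by 74 kb with 78.4% in Clone 6 and by 267 kb with 98.1% in Clone 6.

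Coverage by H3K27me3 was low next to H3K9me3 and rose outward. Clone 3 domains covered 1.08% of the sequence inside H3K9me3 domains and 4.70% in the first 10 kb outside. Coverage then reached 16.0% at 40 to 50 kb, 27.7% at 90 to 100 kb and a maximum of 42.3% at 230 to 240 kb. It fell to 22.4% at 490 to 500 kb and was 12.9% beyond 500 kb. The first 100 kb as a whole had 15.9%, close to the 14.9% over all sequence outside H3K9me3, whereas 100 to 200 kb had 36.0%. The 100 kb limit thus falls on the inner slope of a rise whose peak lies farther out.

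The Clone 6 H3K27me3 set, which had no part in the rule, gave a similar shape around the Clone 3 H3K9me3 domains. Its coverage was 1.98% inside, 5.78% in the first 10 kb, 23.9% at 90 to 100 kb, 37.4% at 230 to 240 kb and 12.5% beyond 500 kb. Over the first 100 kb it was 14.0%, against 15.9% in Clone 3. The H3K27me3 set shared by both clones had 8.58% there and its maximum of 34.6% at the same 230 to 240 kb step.

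**Figure D2:**
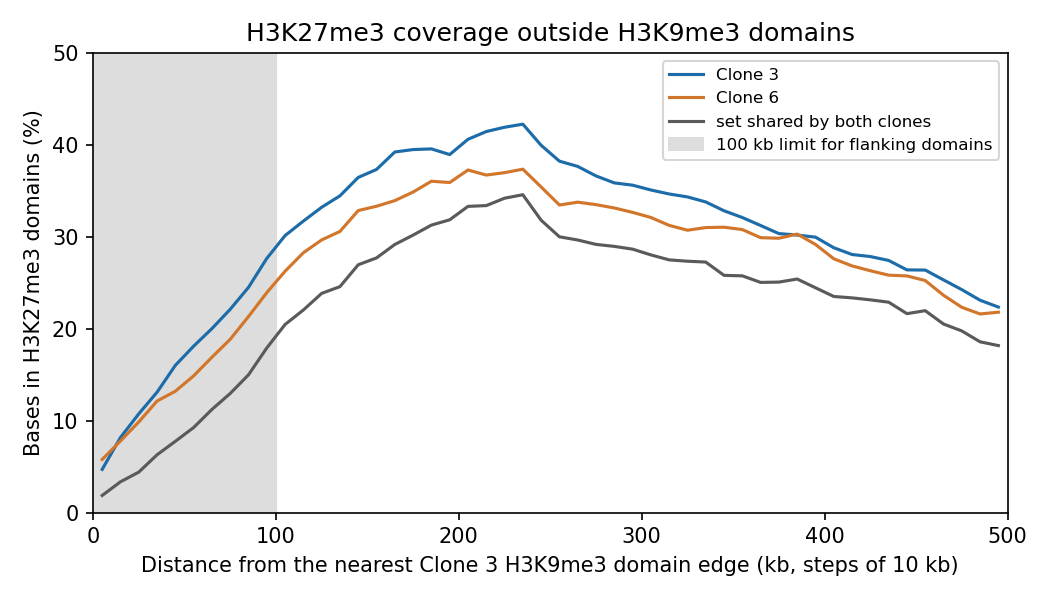
Share of bases in H3K27me3 domains, in percent, by distance in kb from the nearest Clone 3 H3K9me3 edge, in steps of 10 kb, for Clone 3, Clone 6 and the set shared by both clones. The shaded band is the 100 kb limit that defines flanking domains, and all 3 lines are highest at 230 to 240 kb.

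Clone 6 had an H3K27me3 domain at most flanking domains. At least 1 base was shared by 164 of the 207 members (79.2%, 95% Wilson interval 73.2 to 84.2%, which covers counting error only), against a background of 66.0% over all 2600 Clone 3 domains. The share was 64.8% for the other 2393 domains, 74.7% at 100 to 200 kb, 78.0% for domains that overlap H3K9me3 and 62.2% beyond 1 Mb. Members were longer than other domains, and when the others were weighted to the length classes of the members their share was 71.7%. By length of sequence, Clone 6 covered 80.5% of the members and 75.7% of the others. Members run on beyond 100 kb from H3K9me3, so this value also counts bases farther out. Within 100 kb the set shared by both clones covered 8.58% of the sequence, against 15.9% for Clone 3. The values were 26.7% against 36.0% at 100 to 200 kb, and 11.4% against 14.9% over all sequence outside H3K9me3. Higher sharing of the bases nearest to H3K9me3 is therefore not shown. At least 50% of the domain was covered in 156 members, at least 90% in 87 and all of it in 43. These stricter counts have no background over all Clone 3 domains here, so they do not compare members with the others.

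The share rose with length within the members too. Clone 6 had 19 of 50 members under 50 kb (38.0%), 24 of 29 from 50 to under 100 kb (82.8%), 73 of 79 from 100 to under 250 kb (92.4%) and 48 of 49 at 250 kb and over (98.0%). The shares of the other domains in these classes were 51.0%, 66.5%, 73.9% and 92.2%. Short members were thus below, and members of the longer classes above, other domains of their size. Gap length made less difference, with 77.1% up to 25 kb, 76.5% at 25 to 50 kb, 76.4% at 50 to 75 kb and 86.8% at 75 to 100 kb. The share was 74.4% at the lower side and 86.0% at the higher side, where the median lengths were 113 and 160 kb.

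**Figure D3:**
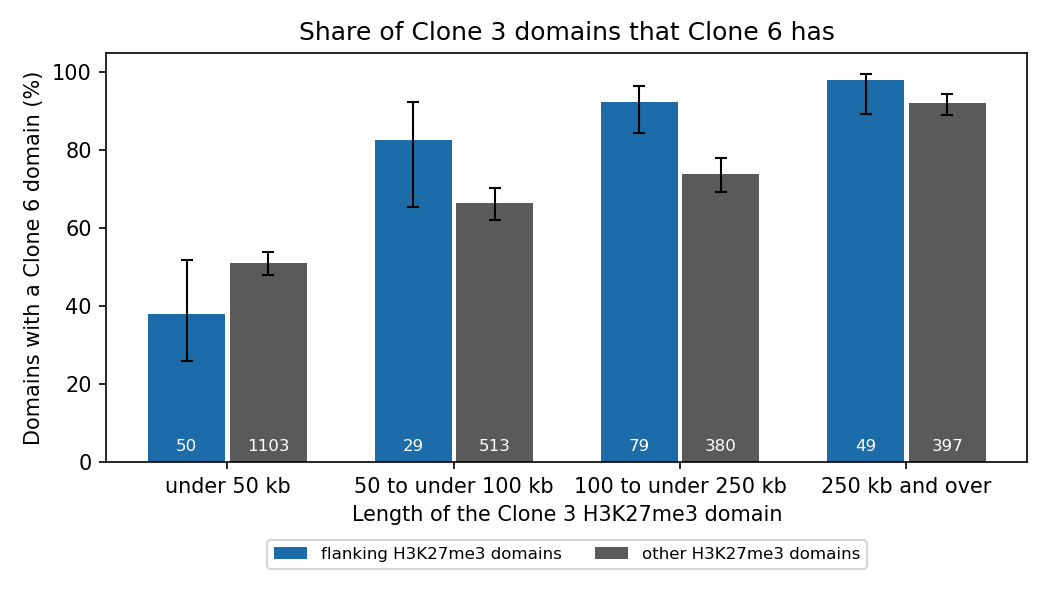
Percent of Clone 3 H3K27me3 domains that share at least 1 base with a Clone 6 domain, by domain length, for flanking and other domains. Error bars are 95% Wilson intervals for counting error and white numbers are the domains in each class; flanking domains range from 38.0% under 50 kb to 98.0% at 250 kb and over.

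Many members had a score in common with a neighbour. In all, 121 of the 207 members (58.5%) had exactly the same second score as the neighbouring H3K27me3 domain, against 77.1% of the other domains. None shared its first score with a neighbour. At 30 of the 31 H3K9me3 ends that carry 2 or 3 members, those members had a single second score in common. The number of members and their median length thus depend on how the deposited rows are cut. Clone 6 had 84 of these 121 members (69.4%, median length 71 kb) and 80 of the 86 whose second score was their own (93.0%, median length 185.5 kb). The shares of the other domains were 60.6% with a shared second score and 79.1% without. When neighbours of equal second score were joined, 161 flanking blocks with a median length of 230 kb remained, and Clone 6 had 153 of them (95.0%), against a background of 79.5% over all 1306 joined blocks.

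Within an end, the piece nearest to H3K9me3 was the one most often missing in Clone 6, although at 30 of the 31 ends these pieces share a score and may be fragments of 1 domain. At the ends with 2 or 3 members, Clone 6 had 12 of the 31 nearest pieces (38.7%), whose median length was 28 kb. It had 28 of the 33 farther pieces (84.8%), with a median length of 161 kb. Members that were alone at their end had 124 of 143 in Clone 6 (86.7%) and a median length of 162 kb. Counted by end, 153 of the 174 flanked ends (87.9%) had at least 1 member that Clone 6 shared. The inner pieces were also the shortest, and the parts of length and position in this difference cannot be told apart.

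Where both clones had the domain, the facing edge more often stopped short in Clone 6 and the far edge more often reached beyond. The edge that faces H3K9me3 stopped farther from it in Clone 6 than in Clone 3 in 101 of 164 members, came closer in 58 and was at the same kb in 5. Its median shift, counted as positive where Clone 6 reaches further out of the Clone 3 domain, was -4.5 kb with quartiles of -32.25 and 6.5 kb. The far edge reached beyond that of Clone 3 in 109, stopped short in 44 and was equal in 11, with a median shift of 5 kb and quartiles of -1 and 50.25 kb. Pieces that may be fragments of 1 domain were counted separately, so an inner piece can have a large far-edge shift beyond. At chr14:62177001-62193000 that shift was 305 kb, and for the outer piece at the same end it was -2 kb. The far edge reached beyond in 66.5% of members, against 55.4% at 100 to 200 kb, 68.8% at 200 kb to 1 Mb and 71.4% beyond 1 Mb, so a far edge farther out in Clone 6 was not particular to the members. Both together, a facing edge short and a far edge beyond, held in 67 of the 164 members (40.9%). Both edges reached beyond in 39, both stopped short in 25, and the facing edge came closer while the far edge stopped short in 19. The domain over TENM4 had the facing edge 297 kb short and the far edge 95 kb beyond.

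The rule chose the facing edge in Clone 3, so this edge was also examined from the other clone. By the same rule 162 of the 1959 Clone 6 domains flank a Clone 3 H3K9me3 domain, and Clone 3 had 134 of them. The facing edge of Clone 3 came closer to H3K9me3 than that of Clone 6 in 79, stopped short in 50 and was equal in 5, with a median shift of 2.5 kb. The far edge of Clone 3 stopped short in 68 and reached beyond in 55. Away from the 100 kb limit the order was not always the same. For Clone 6 domains at 100 to 200 kb the facing edge of Clone 3 came closer in 81 of 119 and stopped short in 27. For Clone 3 domains at 100 to 200 kb the facing edge of Clone 6 came closer in 60 of 121 and stopped short in 50, and beyond 1 Mb it came closer in 745 of 1016. These classes follow from the position of the facing edge in the clone that chose the domains, so the values are description only, and nothing particular to the members is read from them. As shares, the facing edge of the other clone was short in 61.6% of the domains when Clone 3 chose them and in 37.3% when Clone 6 did. The H3K9me3 edges are those of Clone 3 in all of these values. With edges from the H3K9me3 set shared by both clones, these shares were 70.9% when Clone 3 chose and 31.9% when Clone 6 did. The median shift of the facing edge was then -12.5 kb when Clone 3 chose.

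**Figure D4:**
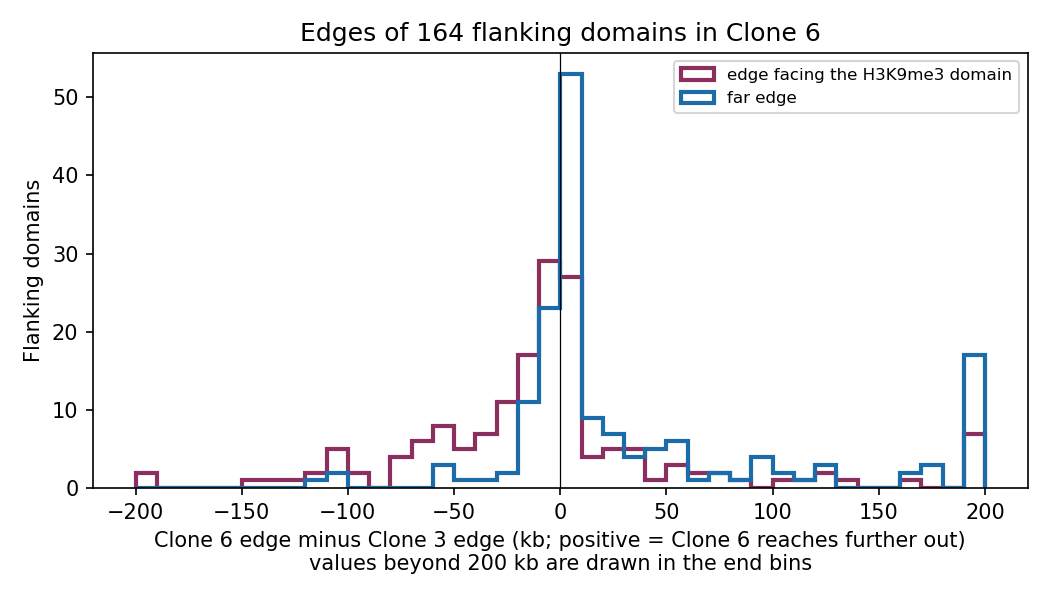
Number of flanking domains by the shift of their edges in Clone 6 relative to Clone 3, in bins of 10 kb, for the 164 domains that both clones have; positive values mean that Clone 6 reaches further out. The facing edge leans to negative values (101 of 164) and the far edge to positive ones (109 of 164).

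In 18 members the Clone 6 domain ran across the gap and reached the Clone 3 H3K9me3 domain. For 12 of these 18 the H3K9me3 domain had no part in the H3K9me3 set shared by both clones, as was true for 10 of the 146 members where Clone 6 shared the domain but did not reach. The 18 border 15 H3K9me3 domains, and for 9 members the Clone 6 H3K27me3 set covered at least 50% of the H3K9me3 domain. Beside SERTM1 on chromosome 13, a 559 kb H3K9me3 domain of Clone 3 was absent from the shared set, and 98.7% of it lay in Clone 6 H3K27me3. Beside LSAMP on chromosome 3, a 188 kb H3K9me3 domain was likewise absent and lay entirely in Clone 6 H3K27me3. A different case was a 294 kb H3K9me3 domain at chr17:14560001-14854000, flanked on both sides, of which 82.3% was in the shared H3K9me3 set and all lay in Clone 6 H3K27me3. This grouping was made after the values were seen.

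The members that Clone 6 lacked were mostly short rows that may be fragments. Of these 43, 37 shared their second score with a neighbouring row and 6 did not, and after joining 8 of the 161 blocks lacked a Clone 6 domain. Of the other Clone 3 domains that Clone 6 lacked, 727 shared their second score with a neighbouring row and 115 did not. A shared score was thus not particular to the members. The 43 had a median length of 29 kb against 164 kb for the 164 members that Clone 6 had, and a median first score of 15.9 against 107. Their second scores had medians of 40.3 and 42.2. For 34 of the 43 a Clone 6 domain lay within 100 kb, and for 9 none did. The 3 longest were a 280 kb domain at chr13:35720001-36000000, a 185 kb domain at chr21:39790001-39975000 and a 154 kb domain at chr6:50070001-50224000. The first bordered the H3K9me3 domain near SERTM1 described above, on its other side, and had a Clone 6 domain 20 kb away. The second holds PCP4, a calmodulin-binding peptide of Purkinje cells, with a Clone 6 domain only 4 kb away, and the third had its nearest Clone 6 domain at 1590 kb.

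Chromosome 20 carried the most members, 22 of its 107 H3K27me3 domains (20.6%), and Clone 6 had 13 of them (59.1%) against 77.6% of its other domains. Chromosome 21 had the higher proportion, 7 of 26 (26.9%), whereas chromosome 6 had 2 of 108 and chromosome X had 0 of 264. Chromosome X has only 1.01 Mb of H3K9me3 domains, against 9.15 Mb on chromosome 20, 15.3 Mb on chromosome 21 and 10.2 Mb on chromosome 6. Few domains of chromosome X could thus meet the rule. All 207 members lay on chromosomes 1 to 22. On 12 of the 19 chromosomes with at least 5 members the Clone 6 share was higher for members than for other domains. Without chromosome 20 the facing edge of Clone 6 was short in 91 of 151 members (60.3%) and the Clone 6 share was 81.6%.

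On chromosome 20 the 22 members lay at 14 ends of H3K9me3 domains. At a 1188 kb H3K9me3 domain both ends were flanked, the lower end by pieces of 48, 19 and 107 kb at 6, 56 and 77 kb and the higher end by pieces of 28 and 240 kb at 8 and 37 kb. Clone 6 had the outermost piece on each side, with 99.1% and 95.4% covered, and none of the inner pieces. The outer piece on the higher side holds the start of PTPRT, a receptor tyrosine phosphatase. At a 594 kb domain the lower pieces of 27 and 54 kb and the inner higher piece of 29 kb were missing in Clone 6, and the 357 kb outer piece on the higher side was 81.0% covered. At the 392 kb domain beside PAX1, a paired-box developmental transcription factor, Clone 6 had 91.7% of the lower flank, short by 17 kb at the facing edge, and the whole higher flank.

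**Figure D5:**
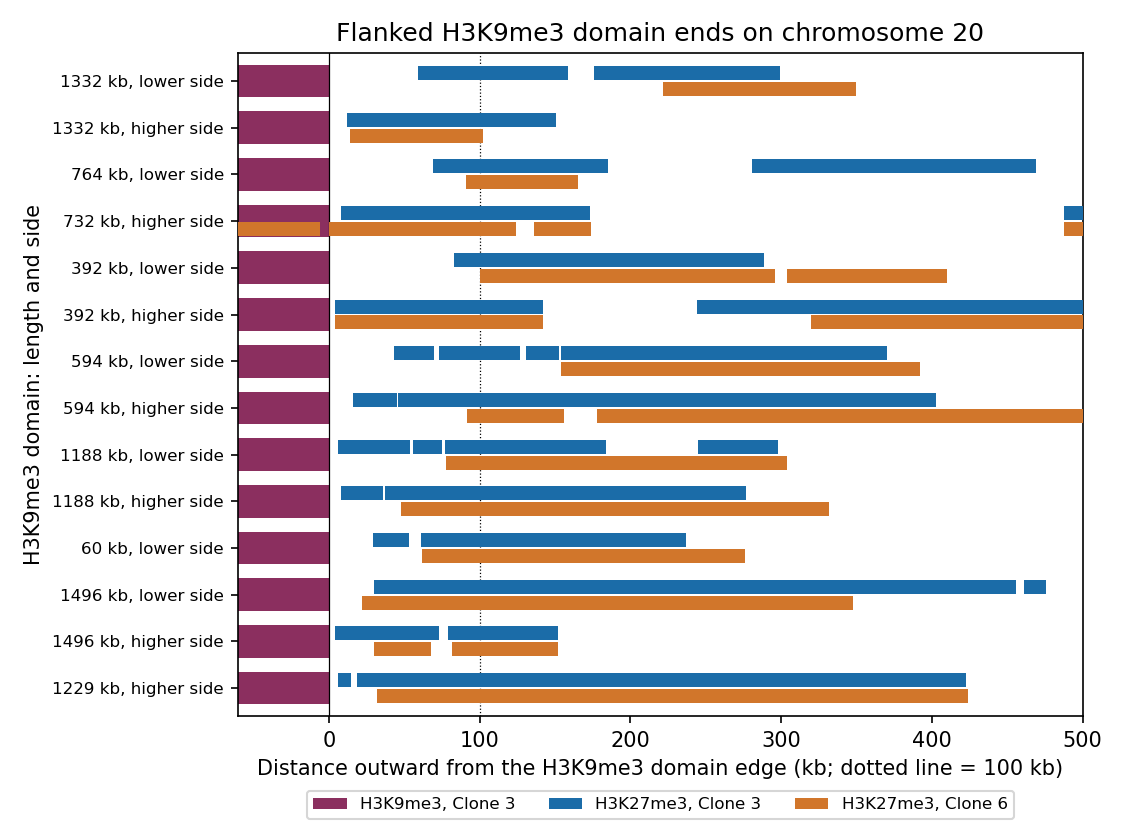
The 14 flanked H3K9me3 ends of chromosome 20, each row aligned at the H3K9me3 edge and drawn outward to 500 kb, labelled by the length of the H3K9me3 domain and the side. Purple is Clone 3 H3K9me3, blue is Clone 3 H3K27me3 and orange is Clone 6 H3K27me3; at the 1188 kb domain the blue pieces nearest to the edge have no orange counterpart.

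The members were richer in CpGs than the H3K9me3 domains and gaps beside them. The flanked H3K9me3 domains held 7.02 CpGs per kb and 37.7% GC, the gaps 7.57 CpGs per kb and 39.3% GC, and the flanking H3K27me3 domains 9.30 CpGs per kb and 42.1% GC. The other H3K27me3 domains held 8.28 CpGs per kb and 41.0% GC, and the genome 10.0 CpGs per kb and 40.9% GC. Per domain, the median was 7.95 CpGs per kb in members and 7.41 in the others. CpG density did not rise steadily with distance. H3K27me3 domains that overlap H3K9me3 held 10.4 CpGs per kb and those at 100 to 200 kb held 7.73, and all sequence in the first 10 kb outside H3K9me3 held 9.13 against 8.65 at 60 to 70 kb. Low-density CpGs, whose nearest CpG is at least 20 bp away, made up 65.7% of CpGs in the flanked H3K9me3 domains, 64.7% in the gaps, 59.5% in the members, 61.7% in other H3K27me3 domains and 53.0% in the genome. Members that Clone 6 lacked had a median of 6.77 CpGs per kb, against 8.10 for those it shared.

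Members were poor in genes, as were the H3K27me3 domains nearest to them. Protein-coding start sites numbered 74, or 1.98 per Mb, against 3.49 per Mb in other H3K27me3 domains, 2.62 per Mb in the gaps (1.79 without the gap that holds 8 TAF11L copies), 0.991 per Mb in the flanked H3K9me3 domains and 6.81 per Mb in the genome. The value was 1.18 per Mb for H3K27me3 domains that overlap H3K9me3, 2.44 at 100 to 200 kb, 2.85 at 200 kb to 1 Mb and 3.95 beyond 1 Mb. No protein-coding gene started in 152 of the 207 members (73.4%, against 72.3% of the others). Of the 74 start sites, 52 (70.3%) lay in Clone 6 H3K27me3 as well, against a background of 82.6% over all start sites in Clone 3 H3K27me3 domains and 83.4% in the other domains.

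The richest member, at chr1:247408001-247607000, holds 6 genes. These are the olfactory receptors OR2B11, OR2C3, OR2G2 and OR2G3, the inflammasome sensor gene NLRP3 and GCSAML. Clone 6 covered 82.4% of it, and the starts of OR2G2 and OR2G3, toward the H3K9me3 domain, lay outside. A 195 kb member at chr15:48097001-48292000 holds the potassium-dependent sodium/calcium exchanger SLC24A5, the kidney sodium-potassium-chloride cotransporter SLC12A1, CTXN2 and MYEF2. Clone 6 covered 47.2% of that domain and none of the 4 start sites. The leukocyte protease genes CTSG, GZMH and GZMB share a 162 kb member on chromosome 14 with 96.3% in Clone 6. The chemokine genes CCL2, CCL7 and CCL11 share a 58 kb member on chromosome 17 that Clone 6 lacked.

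Few members held a gene of the listed families. Of 233 listed developmental transcription factors, POU3F3, a POU-domain factor, and PAX1 started in a member and 33 in other H3K27me3 domains, which is 2.70% of the genes of the members and 2.71% of those of the others. No HOX gene started in either. Olfactory receptors had 5 genes in 2 members, the 4 named above and OR4X1, and 174 genes in 42 other domains, or 6.76% and 14.3% of the genes. KRTAP19-8, a keratin-associated protein gene, TENM4 among neural adhesion genes, and SLC24A5 and SLC12A1 among solute carriers completed the 11 listed genes found. Solute carriers made up 2.70% of the genes of members and 1.81% of those of the others, both from few genes. ZNF genes, clustered protocadherins, cadherins, potassium channels, neurotransmitter receptor subunits, defensins, and cytochrome P450 and UGT genes had none. In all, 7 of the 207 members (3.38%) held a listed gene, against 135 of the 2393 others (5.64%). The 2 transcription factors differed in whether their start lay in Clone 6 H3K27me3, for PAX1 by a small distance. The start of POU3F3 lay in Clone 6 H3K27me3, where 83.3% of its 317 kb domain was covered. The start of PAX1 lay outside, 98.3 kb from the H3K9me3 domain, where the Clone 6 domain stopped at 100 kb. Clone 6 covered 91.7% of the PAX1 domain, and edges are given in whole kb.

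Outside the listed families, members held SALL1, a zinc-finger developmental regulator, FZD8, a Wnt receptor, NTRK3, the neurotrophin-3 receptor, and RBFOX1, a splicing factor. Clone 6 covered 98.7%, 91.5%, 73.7% and 100% of these domains. TIMP3 shares its member with SYN3, in an intron of which it lies, and Clone 6 covered 94.9% of that domain. These genes were picked for their known roles and were not chosen by a rule.

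Some genes ran through both marks. In 44 members a protein-coding gene extended from the H3K27me3 domain across the gap into the H3K9me3 domain, and 41 such genes were counted. A gene must be long to span a gap, and no rate for other domains was computed. Looked up in all Clone 3 domains, the start site lay in H3K27me3 for 18, in H3K9me3 for 18 and outside both for 5. RBFOX1 spans 2474 kb, starts in a 445 kb H3K27me3 domain and enters H3K9me3 93 kb beyond its edge. Other genes that start in H3K27me3 include GPC5 (1475 kb), a glypican, AGBL1 (969 kb), CACNA2D3 (952 kb), a calcium channel subunit, and NTRK3 (397 kb). CNTNAP2 (2305 kb), a neurexin-family adhesion gene, starts in H3K9me3 and extends into a member that is 63.2% covered in Clone 6. TENM2 (1285 kb), GPC6 (1181 kb) and TCF4 (443 kb), a basic helix-loop-helix transcription factor, had the same order. FAT3 (672 kb), an atypical cadherin, and NRG1 (1216 kb), a neuregulin, also start in H3K9me3, in another domain than the one their member borders. CDH13 (1174 kb), an atypical cadherin, and RYR2 (792 kb), a calcium release channel, start in an H3K27me3 domain other than that member. The domain sets hold no expression, so nothing is known here of the activity of these genes.

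The start sites of 8 colon epithelial genes (EPCAM, CDH1, KRT8, KRT18, KRT19, CLDN3, CLDN4 and CLDN7) were looked up, and 0 of 8 lay in any of the 5 domain sets. Most genes lie outside, since Clone 3 H3K27me3 domains hold 1290 protein-coding start sites and the genome has 20033. The count therefore cannot check the cell type. It says only that these 8 genes start outside the repressive domains.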

How the data were processed

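ChIP-seq of both marks came from HCT116 shUHRF1 clones without doxycycline, and samples were grouped by the clone and mark in their labels. The authors trimmed reads with TrimGalore (0.5.0), aligned them to hg38 with bowtie2 (2.3.5), removed duplicates with samblaster, called domains with Enriched Domain Detector at default settings, and kept domains shared by replicates. Of the 5 deposited sets, 3 are for a clone and a mark and 2 hold regions shared by the clones. Starts and ends are whole kb. The 2 deposited scores of a domain have no stated scale, and here the score served only to describe or rank domains and to find neighbours of equal score. Read depth cannot be recovered from the sets, so its effect on the precision of a domain is unknown.

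Gaps were counted from edge to edge. The flanking domains, gene families and named domains were chosen with earlier results of these data known. Domains named by rule were those with the 5 shortest gaps, the 5 longest, those beside the 5 longest H3K9me3 domains, the 5 with most start sites, the 3 longest without Clone 6, and the holders of listed families. Further domains and genes were named as examples and were not chosen by these rules. CpGs were counted in 1 kb bins of hg38, and genes were assigned to domains by their GENCODE 44 start. Clone 6 H3K9me3 was seen only through the shared set and was otherwise not used here. Computation used Python 3.11.15, numpy 2.4.6, pandas 2.3.3, scipy 1.17.1, pysam 0.24.0 and matplotlib 3.10.9. Interval functions were tested on simulated data. Alternatives were other distances, minimum lengths, overlap rules, autosomes only, gene bodies and the clone-shared sets, and, chosen after seeing the data, chromosome 20 left out, a score cut, joined neighbours, a choice from Clone 6, and the CpG-densest domain or the gene-richest gap left out.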

Additional observations from a re-analysis of the deposited data

How the results depend on the processing

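Of 77 recomputed values, 54 stayed within the counting interval of a share or median, a factor of 1.5 of a count or a factor of 1.1 of a density. With a distance of 50 kb there were 99 flanking domains with a median gap of 27 kb, 50.5% at the lower side and 1.72 start sites per Mb, so the excess at the lower side was not present within 50 kb. With 200 kb there were 369, with a median gap of 87 kb. H3K9me3 domains of at least 100 kb gave a flanked median of 1209 kb. H3K27me3 domains of at least 100 kb numbered 128, with a median length of 201.5 kb, a flanked H3K9me3 median of 1262 kb, 94.5% in Clone 6 and 1.80 start sites per Mb. Other domains had 73.9% in Clone 6 at 100 to under 250 kb and 92.2% at 250 kb and over, so a high share was not particular to long members. A 50% reciprocal overlap gave 59.9% of members in Clone 6, with no value for other domains. Gene bodies in place of start sites gave 3.37 genes per Mb and 17 domains with a listed family. Coverage within 100 kb was 14.0% for Clone 6 and 8.58% for the shared H3K27me3 set. Of the alternatives chosen after seeing the data, the upper 50% of domains by their lower score gave 132 flanking domains. Their median length was 197 kb and 90.9% were in Clone 6, with no value for other domains. Joined neighbours gave a median of 230 kb and 95.0% in Clone 6, against 79.5% over all joined blocks. Choosing members from Clone 6 gave 37.3% of facing edges short in Clone 3. Leaving out the CpG-densest domain gave 9.22 CpGs per kb. The domain sets carry no depth, so how depth limits these values is unknown.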
